A study of Homo sapiens with 6 samples.

Results

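Imprinted genes are transcribed mainly from the copy inherited from 1 parent. A set of 10 of them, lying in domains in which CTCF sites or DNA-methylated imprinting control regions have been described, was followed through transdifferentiation with and without CTCF: *H19*, *IGF2*, *CDKN1C* and *KCNQ1OT1* on chromosome 11, *PEG10*, *SGCE* and *MEST* on chromosome 7, *PLAGL1* on chromosome 6, *MEG3* on chromosome 14 and *SNRPN* on chromosome 15. They were taken by symbol, and all 10 were found among the 30017 genes of the count table. RNA-seq counts were available for 6 libraries of a subclone of BLaER, a human B cell leukemia line that carries an inducible C/EBPα transgene and converts to macrophage-like cells when it is switched on. All libraries came from the BLaER CTCF-AID subclone, in which CTCF is fused to an auxin-inducible degron. The groups were untreated cells at 0 h, cells transdifferentiated for 96 h without auxin (control) and cells transdifferentiated for 96 h with auxin (CTCF-depleted), with 2 libraries each. The cells are 1 subclone, and no auxin-treated line without the degron was among the libraries, so that an effect of auxin and an effect of CTCF loss cannot be told apart.

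The parental copies of an imprinted gene carry different DNA methylation at a control region, and the methylated and unmethylated copies bind different proteins. At the *H19*-*IGF2* control region CTCF binds the unmethylated maternal copy and keeps enhancers from reaching *IGF2*. At the *KCNQ1OT1* domain the control region is the promoter of the noncoding RNA *KCNQ1OT1*, which is transcribed from the paternal copy and silences nearby genes in cis, among them *CDKN1C*. The counts here were summed over both copies, so that they carry no information on which copy was read.

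Total counts ranged from 9273470 to 12718780 per library, which makes 3 counts, the number that a count of 0 can hide, equal to between 0.236 and 0.324 CPM of the unscaled total, while the CPM of genes given here were scaled with TMM factors. Counting intervals given here cover counting error only. *CTCF* itself had between 1875 and 2849 counts per library, and since the degron removes the protein, its transcript is no check of the depletion. The 8 B cell marker genes examined were all lower and the 8 macrophage marker genes were all higher in control than in 0 h cells, which matches the labelled conversion. In bulk RNA, fewer cells of a type and less RNA per cell cannot be told apart.

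Of the 10 imprinted genes, 5 were too low to judge and 5 were measurable. *H19*, *IGF2*, *MEG3*, *SNRPN* and *MEST* had 0 counts in each of the 6 libraries. *H19* is a maternally expressed noncoding RNA (chr11:1995166-2004552, hg38, minus strand), and *IGF2* is a paternally expressed growth factor on the same chromosome (chr11:2129112-2158391, minus strand). *MEG3* is a maternally expressed noncoding RNA (chr14:100779410-100861031, plus strand), *SNRPN* encodes a splicing protein and is paternally expressed (chr15:24823637-24978723, plus strand), and *MEST* is a paternally expressed gene of the alpha/beta hydrolase fold family (chr7:130486171-130506465, plus strand). Over all 6 libraries a sampled count of 0 allows up to 0.0449 CPM per gene. This limit does not cover reads that the counting may have left out, which was not tested for any of them. Exon length shared with another gene on the same strand was 23.9% for *SNRPN*, 20.4% for *IGF2*, 2.11% for *H19* and 0.422% for *MEG3*. For *MEST*, 14.9% of the exon length was covered on the other strand. In the whole table, 8451 genes (28.2%) had 0 counts in every library.

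The measurable genes were *KCNQ1OT1*, *CDKN1C*, *PLAGL1*, *PEG10* and *SGCE*. They were the 5 that passed the filter on low counts. *KCNQ1OT1* (chr11:2597308-2700003, minus strand) was read 4434 and 6622 times at 0 h, and its counts were 6939 and 7267 in control and 3730 and 3795 in CTCF-depleted cells. *CDKN1C*, which encodes the cell-cycle inhibitor p57 (chr11:2883213-2885775, minus strand), was read 29 and 19 times at 0 h, with 402 and 401 counts in control and 215 and 190 in CTCF-depleted cells. *PLAGL1*, a zinc finger transcription factor that restrains proliferation (chr6:143940300-144064599, minus strand), had 42 and 75, then 148 and 173, then 77 and 95 counts. In each of these 3 genes the control libraries were the highest and no control library overlapped a CTCF-depleted one. With 2 against 2 libraries, an exact permutation test gives full separation a two-sided p of 0.333. How many of all tested genes separate in this way was not counted, so this describes the counts of these genes only.

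*PEG10* and *SGCE* had the opposite course in transdifferentiation. *PEG10*, a gene derived from a retrotransposon that encodes a capsid-like protein (chr7:94656325-94669695, plus strand), was read 1024 and 1264 times at 0 h, with 35 and 40 counts in control and 2 and 8 in CTCF-depleted cells. *SGCE*, which encodes epsilon-sarcoglycan (chr7:94524204-94656572, minus strand), had 114 and 131, then 14 and 21, then 1 and 3 counts. Both genes were highest at 0 h and lowest in CTCF-depleted cells, without overlap between any of the 3 groups. The share of all tested genes without such overlap was not counted here either.

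Per kb of annotated exon the order of levels changed between conditions. At 0 h *PEG10* was highest at 14.98 ± 1.14 CPM per kb (SD, n = 2), followed by *KCNQ1OT1* at 5.15 ± 0.300, *CDKN1C* at 0.890 ± 0.447, *PLAGL1* at 0.777 ± 0.143 and *SGCE* at 0.517 ± 0.0655. *CDKN1C* and *PLAGL1*, neighbours in that order, did not differ there beyond their spread. In control cells *CDKN1C* was highest at 14.6 ± 0.472 CPM per kb, *KCNQ1OT1* was at 6.94 ± 0.462 and *PLAGL1* at 2.27 ± 0.326, whereas *PEG10* was at 0.508 ± 0.0650 and *SGCE* at 0.0762 ± 0.0240. In CTCF-depleted cells *CDKN1C* was at 7.54 ± 0.686 CPM per kb, *KCNQ1OT1* at 3.75 ± 0.0323, *PLAGL1* at 1.24 ± 0.179, *PEG10* at 0.0689 ± 0.0583 and *SGCE* at 0.00884 ± 0.00622. The exon lengths came from GENCODE and may differ from the gene models used for counting.

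The comparison of CTCF-depleted with control cells at 96 h asks what changed when transdifferentiation ran without CTCF, and all 5 measurable imprinted genes were lower in CTCF-depleted cells. *KCNQ1OT1* fell from 643 ± 42.8 to 347 ± 2.99 CPM (SD, n = 2), with log2 fold change -0.89 (SE 0.05, edgeR adjusted p 1.13e-22). *CDKN1C* fell from 36.3 ± 1.17 to 18.7 ± 1.70 CPM (log2 fold change -0.96, SE 0.12, edgeR adjusted p 9.51e-10). *PLAGL1* fell from 14.5 ± 2.09 to 7.94 ± 1.15 CPM (log2 fold change -0.87, SE 0.17, edgeR adjusted p 2.61e-05). These 3 genes were left at 54.1%, 51.5% and 54.6% of their control level, in that order. Among all 14758 genes tested, 7.03% were called lower at an adjusted p below 0.01 with a log2 fold change beyond 0.6, 12.4% were called in either direction, and the median log2 fold change was -0.03. The 5 genes are not separate cases beside these shares, since *KCNQ1OT1* and *CDKN1C* share a domain and *PEG10* and *SGCE* a control region. They were also chosen with earlier results of these data known.

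*PEG10* and *SGCE* fell further, but from few reads. *PEG10* fell from 3.40 ± 0.435 to 0.461 ± 0.390 CPM (log2 fold change -2.85, SE 0.38, edgeR adjusted p 7.25e-09). With 10 against 75 counts summed over the libraries, the level was 13.6% of control with an exact 95% interval from 6.28% to 26.5%. *SGCE* fell from 1.59 ± 0.501 to 0.184 ± 0.130 CPM (log2 fold change -3.02, SE 0.62, edgeR adjusted p 6.98e-05), and its 4 against 35 summed counts gave 11.7% with an interval from 3.02% to 32.7%. Without control replicate 2, 2 of the 5 calls were lost, *PLAGL1* at an adjusted p of 0.0148 and *SGCE* at 0.0112, both still lower. The *PEG10* log2 fold change was -2.15 without CTCF-depleted replicate 1 and -4.09 without CTCF-depleted replicate 2, and that of *SGCE* was -2.43 and -3.91.

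**Figure D1:**
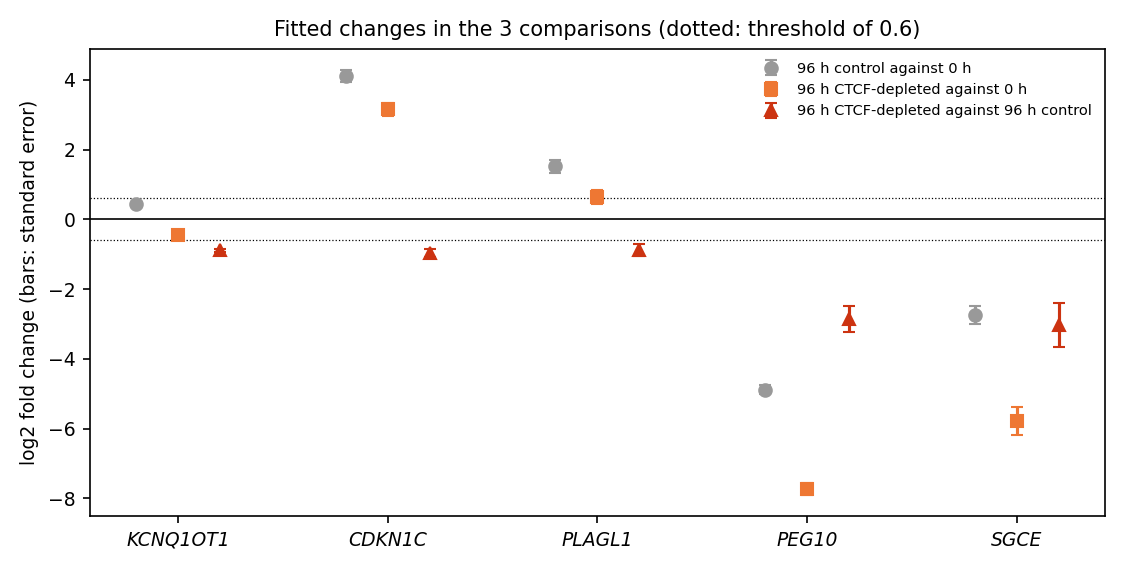
Log2 fold changes with SE bars of the 5 measurable imprinted genes in CTCF-depleted against control, control against 0 h and CTCF-depleted against 0 h. All 5 lie below 0 in the first comparison, from -0.87 for *PLAGL1* to -3.02 for *SGCE*, while the other comparisons hold values on both sides of 0.

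Transdifferentiation of control cells, from 0 h to 96 h, moved the same genes in different directions. *CDKN1C* rose from 2.21 ± 1.11 to 36.3 ± 1.17 CPM (SD, n = 2), a log2 fold change of 4.11 (SE 0.17, edgeR adjusted p 3.70e-29). *PLAGL1* rose from 4.98 ± 0.914 to 14.5 ± 2.09 CPM (log2 fold change 1.52, SE 0.18, edgeR adjusted p 6.94e-11). *PEG10* fell from 100.2 ± 7.65 to 3.40 ± 0.435 CPM (log2 fold change -4.88, SE 0.12, edgeR adjusted p 1.89e-40), and *SGCE* fell from 10.8 ± 1.37 to 1.59 ± 0.501 CPM (log2 fold change -2.75, SE 0.26, edgeR adjusted p 4.27e-14). *KCNQ1OT1* had a log2 fold change of 0.43 (SE 0.05, edgeR adjusted p 6.63e-12), below the fold threshold. Thus 2 of the 5 rose and 2 fell, against 25.4% of all tested genes called higher, 22.9% called lower and 48.3% called in either direction. Beside the fall of *PEG10* and *SGCE*, the summed level of the 8 B cell markers went from between 2960 and 2965 CPM at 0 h to between 396 and 400 CPM in control and between 342 and 358 CPM in CTCF-depleted cells. The part of B cell marker loss in the *PEG10* and *SGCE* values was not tested.

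Set against 0 h, CTCF-depleted cells still had more *CDKN1C* and *PLAGL1* than at 0 h and less *PEG10* and *SGCE*. *CDKN1C* was at 18.7 ± 1.70 CPM (log2 fold change 3.15 over 0 h, SE 0.19, edgeR adjusted p 9.95e-22), and *PLAGL1* was at 7.94 ± 1.15 CPM (log2 fold change 0.65, SE 0.20, edgeR adjusted p 0.00316). *KCNQ1OT1* in CTCF-depleted cells was below its 0 h level of 477 ± 27.8 CPM (log2 fold change -0.46, SE 0.05, edgeR adjusted p 1.54e-12) that missed the fold threshold. *PEG10* was 215-fold lower than at 0 h by summed counts (10 against 2288, exact 95% interval 117 to 449), with a fitted log2 fold change of -7.72 (SE 0.17, edgeR adjusted p 1.14e-42). *SGCE* was 57.6-fold lower (4 against 245 counts, interval 22.2 to 213), with a fitted log2 fold change of -5.77 (SE 0.40, edgeR adjusted p 2.38e-19). Of all tested genes, 27.2% were called higher, 25.2% lower and 52.5% in either direction in this comparison, which shares its CTCF-depleted libraries with the first comparison and its 0 h libraries with the second, as the first and second share the control libraries. Without CTCF-depleted replicate 2 the fitted values were -8.96 for *PEG10* and -6.66 for *SGCE*, and without replicate 1 they were -7.06 and -5.22. The *PLAGL1* call was lost with DESeq2 (adjusted p 0.0396), without 0 h replicate 1 (edgeR adjusted p 0.0348) and without CTCF-depleted replicate 2 (edgeR adjusted p 0.0501).

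*PEG10* and *SGCE* share a control region and are transcribed in opposite directions from starts 247 bp apart. Their annotated exons overlap by 219 bp, which is 3.27% of the *PEG10* and 1.05% of the *SGCE* exon length. Counts of *PEG10* per count of *SGCE* were 8.98 and 9.65 at 0 h, 2.5 and 1.90 in control and 2 and 2.67 in CTCF-depleted cells. The ratio was lower in every 96 h library than at 0 h, while the control and CTCF-depleted libraries overlapped. The CTCF-depleted ratios rest on 2 against 1 and 8 against 3 counts, too few to tell whether the ratio was kept. Of the adjacent genes, *CASD1*, which encodes a sialic acid acetyltransferase, had 677 and 676 counts in control and 600 and 665 in CTCF-depleted cells, a log2 fold change of -0.07 (SE 0.08, edgeR adjusted p 0.534), and *PPP1R9A*, a neuronal actin-binding protein gene, had 0 counts in each library. The collagen gene *COL1A2* was untested, with 0 and 0 counts at 0 h, 1 and 0 in control and 8 and 5 in CTCF-depleted cells. None of the 4 tested genes of the 7q21 neighbour list was called in CTCF-depleted against control cells, with edgeR log2 fold changes from -0.56 to 0.04, 0 of them at an unadjusted p below 0.05 and 0 called by DESeq2.

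In the *KCNQ1OT1* domain the noncoding RNA and *CDKN1C*, whose starts lie 186 kb apart, were lower together in CTCF-depleted than in control cells. *KCNQ1*, a potassium channel gene in which *KCNQ1OT1* lies antisense, had 2 and 7 counts at 0 h, 189 and 176 in control and 164 and 203 in CTCF-depleted cells. Its log2 fold change was 0.04 in CTCF-depleted against control (SE 0.14, edgeR adjusted p 0.861). *KCNQ1* exons cover 121 bp of the *KCNQ1OT1* exons on the other strand, 0.131% of their length, and the strand setting of the counting is not given in the sources used here. This figure leaves out the *KCNQ1* introns, and whether reads from them entered the *KCNQ1OT1* counts was not tested. Of the 10 tested genes of the domain's neighbour list, 1 was called, *TSPAN32*, a tetraspanin gene of blood cells, with 403 and 363 counts in control and 560 and 601 in CTCF-depleted cells, a log2 fold change of 0.63 (SE 0.09, edgeR adjusted p 1.60e-08). The list's median log2 fold change was 0.28, against -0.03 over all tested genes. Of the other adjacent genes, *SLC22A18AS* had a log2 fold change of 0.27 (SE 0.50, edgeR adjusted p 0.712), and *KCNQ1DN* and *TRPM5* had at most 1 count in any library. Of the tested genes, 12607 of 14758 were matched to a position by symbol. Among the 19 other matched genes within 1000 kb of *KCNQ1OT1*, *CDKN1C* was called lower and *TSPAN32* higher.

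Around *PLAGL1* the overlapping transcript had few counts. *HYMAI*, a paternally expressed noncoding RNA that shares a promoter and 4.51% of the *PLAGL1* exon length on the same strand, was read 10 and 14 times at 0 h, 17 and 42 times in control and 24 and 13 in CTCF-depleted cells, with overlap between the groups (log2 fold change -0.64, SE 0.39, edgeR adjusted p 0.196). It was called higher in control than at 0 h (log2 fold change 1.35, SE 0.42, edgeR adjusted p 0.00367), a call that was lost with DESeq2 (adjusted p 0.0653), without 0 h replicate 1 (edgeR adjusted p 0.0241), without 0 h replicate 2 (0.0356) and without control replicate 2 (0.419, log2 fold change 0.53). On either side of them lie *ZC2HC1B* and the splicing factor gene *SF3B5*. *ZC2HC1B* was untested, with 0 and 8 counts at 0 h, 1 and 0 in control and 8 and 8 in CTCF-depleted cells. *SF3B5* had a log2 fold change of -0.08 (SE 0.11, edgeR adjusted p 0.5999). Of the 7 tested genes of the *PLAGL1* list, *STX11*, a SNARE protein gene of immune cells, was called lower, with 154 and 128 counts in control and 82 and 85 in CTCF-depleted cells. Its log2 fold change was -0.72 (SE 0.17, edgeR adjusted p 5.38e-04), and the call was lost with DESeq2 (adjusted p 0.0628), without control replicate 1 (edgeR adjusted p 0.0414) and without CTCF-depleted replicate 1 (edgeR adjusted p 0.0137).

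**Figure D2:**
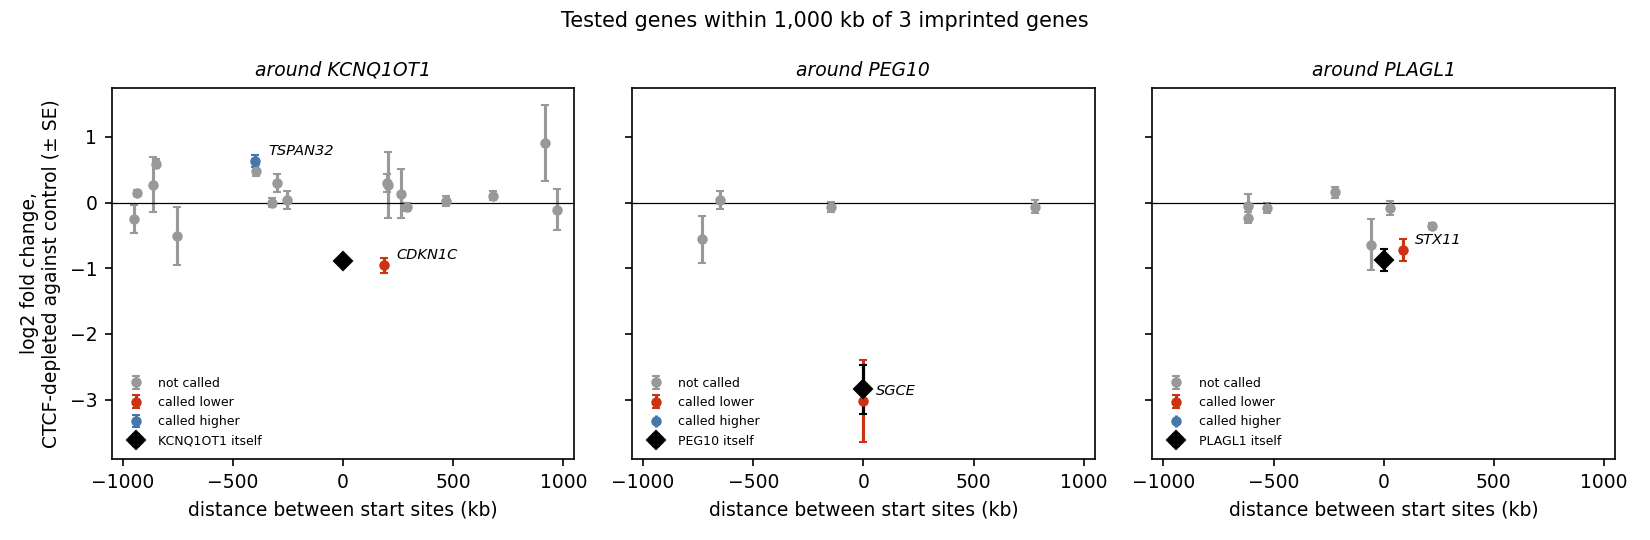
Log2 fold change in CTCF-depleted against control (vertical axis, SE bars) of tested genes with a matched position within 1000 kb of *KCNQ1OT1*, *PEG10* and *PLAGL1*, by distance in kb between gene starts, with the named gene as a black diamond. *CDKN1C* at -0.96, *SGCE* at -3.02 and *STX11* at -0.72 were called lower (red), *TSPAN32* at 0.63 was called higher (blue), and grey points were not called.

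The upstream sequences of *PLAGL1* and *SNRPN* are shown because each belongs to a promoter at an imprinting control region and carries the CG dinucleotides on which differential methylation rests. They are RefSeq sequences of GRCh38.p14, the 250 bases before the start that the gene shares with a second transcript, written 5′ to 3′ on the gene's strand with CG in capitals. The *PLAGL1* sequence (shared with *HYMAI*, chr6:144008260-144008509, minus strand) holds 32 CG, and the *SNRPN* sequence (shared with *SNURF*, chr15:24954737-24954986, plus strand) holds 12.
PLAGL1: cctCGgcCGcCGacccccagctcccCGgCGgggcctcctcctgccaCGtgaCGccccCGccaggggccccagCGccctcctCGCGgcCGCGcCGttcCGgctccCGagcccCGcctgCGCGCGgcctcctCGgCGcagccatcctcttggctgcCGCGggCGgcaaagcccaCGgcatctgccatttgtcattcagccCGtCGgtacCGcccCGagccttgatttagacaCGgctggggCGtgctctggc
SNRPN: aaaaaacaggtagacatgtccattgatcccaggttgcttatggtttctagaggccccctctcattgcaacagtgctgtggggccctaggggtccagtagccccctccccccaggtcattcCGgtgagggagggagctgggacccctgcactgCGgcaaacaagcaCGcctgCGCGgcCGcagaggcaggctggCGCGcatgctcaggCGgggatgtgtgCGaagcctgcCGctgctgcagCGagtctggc

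In the reference set of promoter windows (250 bases before to 50 after a start), 5 of the 10 genes had 18 windows, with 2 to 39 CG each, against a median of 14 over all 35116 windows. The shared *PLAGL1* window held the 39. The letters CCCTC, searched on both strands, were present in 15 of the 18 windows and in 71.2% of all windows. A longer form of the CTCF core motif, with unspecified bases inside it, was in 0 of the 18 and in 2.41% of all windows, which describes these letters in these windows only.

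In the *SNRPN* region reads were found on other transcripts of the paternally expressed unit although *SNRPN* was at 0. The noncoding RNA *PWAR5* had 468 and 677 counts at 0 h, 242 and 232 in control and 233 and 230 in CTCF-depleted cells. *IPW*, a further noncoding RNA of the unit, had 262 and 389, then 106 and 108, then 96 and 127 counts. The 29 *SNORD116* small nucleolar RNA genes together had 413 and 603, then 193 and 245, then 207 and 247 counts. These transcripts were lower in both 96 h groups than at 0 h, and the counts of the control and CTCF-depleted groups overlapped for all 3. *PWAR5* had a log2 fold change of -1.21 in control against 0 h (edgeR adjusted p 3.04e-18) and -0.00 in CTCF-depleted against control (edgeR adjusted p 0.989), and *IPW* had -1.54 and 0.09 (edgeR adjusted p 0.696 for the latter). *MAGEL2*, an intronless ubiquitin ligase regulator, had 79 and 83, then 6 and 15, then 23 and 17 counts, and its log2 fold change in CTCF-depleted against control was 0.95 (SE 0.43, edgeR adjusted p 0.0767). *PWAR5*, *IPW*, *MAGEL2* and *SNORD116* were picked for description after their values were seen.

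The 0 of *SNRPN* stands beside an annotation in which 23.9% of its exon length (813 bp) is shared with *SNURF* on the same strand. *SNURF* had 0 and 4 counts at 0 h, 0 and 0 in control and 1 and 1 in CTCF-depleted cells. Genes that, like *SNRPN*, share some but under 95% of their exon length with another gene on the same strand were at 0 in every library in 13.6% of 1298 cases, against 23.6% of 20417 genes without such overlap and 40.7% of 383 genes with an overlap of at least 95%. These classes came from GENCODE exons, which may differ from the gene models used for counting, and cover the 22098 of 30017 genes that were matched. The class of *SNRPN* in the counting is therefore unknown, and these shares cannot decide how its 0 arose. Whether shared reads were left out of the *SNRPN* count was not tested. Of the 13 tested genes of the 15q11-q13 list, 7 were called lower in control than at 0 h, where 22.9% of all tested genes were, with log2 fold changes from -2.89 to -0.14 over the list. The 7 include *PWAR5* and *IPW* of the same unit, so they are not all separate cases beside that share. *MKRN3*, also of the list, had -0.53 (edgeR adjusted p 0.00137) and missed the fold threshold. In CTCF-depleted against control cells 1 of the 13 was called, *ATP10A*, a phospholipid flippase gene, which was lower, with 71 and 68 counts in control and 34 and 50 in CTCF-depleted cells. Its log2 fold change was -0.69 (SE 0.20, edgeR adjusted p 0.00463), and the call was lost with DESeq2 (adjusted p 0.0354), with only the 4 libraries compared (edgeR adjusted p 0.0147), and without control replicate 1 (0.0418), control replicate 2 (0.0439) or CTCF-depleted replicate 1 (edgeR adjusted p 0.208, log2 fold change -0.41).

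**Figure D3:**
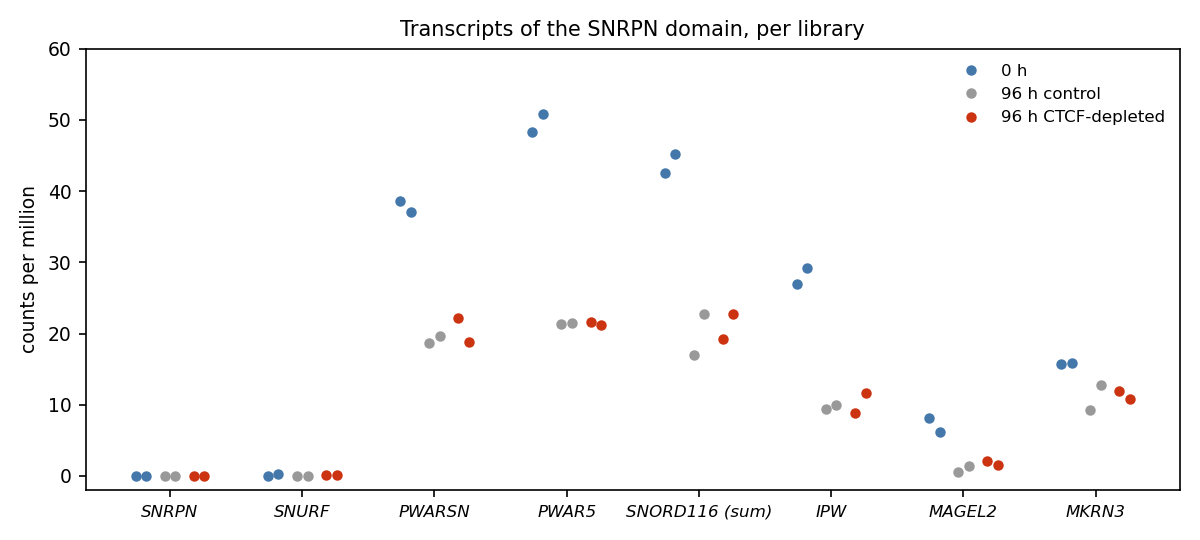
CPM (linear axis) of transcripts of the *SNRPN* region, with 1 point per library coloured by group. *PWAR5*, *IPW* and the summed *SNORD116* genes are lower in the 96 h libraries than at 0 h, and control and CTCF-depleted libraries lie close together.

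Around the other genes at 0, part of the neighbours were read: 6 of 14 listed genes around *H19* and *IGF2*, 7 of 11 around *MEST* and 3 of 14 around *MEG3* were at 0 in every library as well. Of the 8 tested genes of the *MEG3* list, *WDR25*, a WD-repeat protein gene, was called higher, with 80 and 87 counts in control and 143 and 125 in CTCF-depleted cells (log2 fold change 0.71, SE 0.17, edgeR adjusted p 6.90e-04). The *WDR25* call was lost with DESeq2 (adjusted p 0.0377), without control replicate 1 (edgeR adjusted p 0.0227) and without CTCF-depleted replicate 1 (edgeR adjusted p 0.0121). *SLC25A29*, a mitochondrial amino acid carrier gene, was called lower, with 1668 and 1566 against 1035 and 939 counts (log2 fold change -0.68, SE 0.06, edgeR adjusted p 7.70e-14), though without CTCF-depleted replicate 2 its fold missed the threshold. None of the 4 tested genes of the *H19*-*IGF2* list was called by edgeR, with log2 fold changes from -0.51 to 0.59, though 2 had an unadjusted p below 0.05 and DESeq2 called 1, *LSP1*, a leukocyte actin-binding protein gene with 963 and 993 counts in control and 1497 and 1385 in CTCF-depleted cells (edgeR log2 fold change 0.59, just under the threshold). Of the 2 tested genes of the *MEST* list, none was called by edgeR or DESeq2. The log2 fold change was -0.43 for *COPG2* (edgeR adjusted p 1.31e-04) and -0.33 for *CEP41* (edgeR adjusted p 0.00745). In edgeR both were under the adjusted p threshold of 0.01 and missed the fold threshold. Over all 7 neighbour lists, 48 of 93 genes were tested, of which 3 were called lower and 2 higher, with a median log2 fold change of -0.06. Over all tested genes the shares were 7.03% lower and 5.41% higher. An unadjusted edgeR p below 0.05 was reached by 5 of the 10 tested genes of the *KCNQ1OT1*-*CDKN1C* list and 6 of 8 of the *MEG3* list. It was also reached by 6 of 13 of the 15q11-q13 list and 2 of 7 of the *PLAGL1* list, called genes included. How many of all tested genes reached this level was not counted.

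In CTCF-depleted against control cells, 7.03% of all tested genes were called lower and 5.41% higher, 12.4% in either direction. Beside these shares, the few calls in the short lists below describe single genes. Among 30 other imprinted genes in the table, 18 were tested, with a median log2 fold change of 0.16 against -0.03 over all tested genes. In this comparison 0 of them were called lower and 1 was called higher. This was *ZDBF2*, a paternally expressed zinc finger gene, with 222 and 346 counts at 0 h, 188 and 162 in control and 306 and 336 in CTCF-depleted cells, a log2 fold change of 0.91 (SE 0.11, edgeR adjusted p 1.10e-09). Of 10 factors that maintain or read imprints, 6 were tested and 1 was called lower, *UHRF1*, which recruits the maintenance DNA methyltransferase to replicated DNA. *UHRF1* had 6391 and 8316 counts at 0 h, 1400 and 1329 in control and 672 and 661 in CTCF-depleted cells, with a log2 fold change of -1.002 in CTCF-depleted against control (edgeR adjusted p 3.24e-21). In the same comparison 2 of the 8 B cell markers were called lower, *VPREB1* (-0.89) and *RAG1* (-1.94), and of the 8 macrophage markers *ITGAM* was called higher (1.15) and *MPEG1* lower (-1.11). The *MPEG1* call was lost with DESeq2 and without control replicate 2 or either CTCF-depleted replicate, with adjusted p up to 0.0624. The summed macrophage markers were between 5217 and 5471 CPM in control and between 5021 and 5062 CPM in CTCF-depleted cells. Most of that sum came from *LYZ*, with a mean of 4527 CPM in control and 4158 CPM after depletion. The sum therefore mainly follows a single gene and does not describe all 8 markers. Their log2 fold changes lay on both sides of 0, from -1.11 to 1.15, with a median of 0.03. The part of the macrophage markers in the imprinted gene values was not tested.

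As a description of likeness in course over the 6 libraries, by Pearson r of log2 CPM, *PEG10* was most like *VBP1* (r = 0.999), *SGCE* most like *EWSR1* (0.999), *PLAGL1* most like *CEP170* (0.997), *CDKN1C* most like *SCIMP* (0.999) and *KCNQ1OT1* most like *LPGAT1* (0.998). The 6 points share 3 group means, and the genes were taken as the best of all tested genes, so that r carries no p.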

How the data were processed

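RNA-seq was measured in 6 libraries of 1 BLaER CTCF-AID subclone, 2 per group. The counts are raw read counts per gene without normalization, as deposited by the authors. Per the methods and the processing notes, reads were aligned to hg38 with STAR 2.6.1d and counted with featureCounts 2.0.6 over protein-coding exons, although the table also lists noncoding genes. The annotation release and strand setting are not given in the sources used here. Every count column was mapped to a sample.

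Counts were tested in R 4.3.3 with edgeR 4.0.16 (filterByExpr, TMM, quasi-likelihood, condition as the only term, all 6 libraries). This left 14758 of 30017 genes with 99.9% of the counts. A call needed a Benjamini-Hochberg adjusted p under 0.01 and a log2 fold change beyond 0.6 in either direction. DESeq2 1.42.0, other scaling, filters, thresholds, a replicate block and left-out libraries were alternatives. Where 1 library was left out, its group had 1 sample, which was assumed to vary like the other groups, whose spread the fit used. On data simulated for CTCF-depleted against control, edgeR recovered 100 of 100 genes changed 2-fold and 100 of 100 changed 4-fold, and DESeq2 89 and 100. The changed genes were drawn only from genes above a limit on mean CPM, which *SGCE* at 4.19 CPM did not reach. Other genes were simulated at their mean over all libraries. The recovery therefore does not cover levels as low as those of *PEG10* and *SGCE* at 96 h. Libraries of a group differed beyond sampling noise, with chi-square per degree of freedom of 2.80 at 0 h, 1.95 in control and 1.75 in CTCF-depleted cells. An exact permutation test of 2 against 2 libraries cannot go below a two-sided p of 0.333. A gene was too low to judge when filterByExpr left it out.

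Positions and exon lengths came from GENCODE 44. The text names the 10 imprinted genes, genes of fixed lists called in CTCF-depleted against control cells, genes adjacent to a called imprinted gene, the genes most alike, and *CTCF*. Further genes (*COPG2*, *CEP41*, *LSP1*, *SNURF*, *PWAR5*, *IPW*, *MAGEL2*, *MKRN3*, *SNORD116*, *LYZ*) were named after their values were seen. The imprinted genes and lists were chosen with earlier results of these data known. Plots were made with matplotlib 3.10.9 in Python 3.11.15.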

Additional observations from a re-analysis of the deposited data

How the results depend on the processing

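Each value of the 5 measurable genes in the 3 comparisons was set against alternatives, 174 values in all. Of these, 163 kept their direction and their side of the thresholds, 9 kept the direction and lost the call, 2 gained a call and 0 reversed. Alternatives that changed only a threshold reused the same fit and could not reverse a direction. The cases in which *PEG10* and *SGCE* left the test, with at least 10 counts in every library, are not among the 174. In CTCF-depleted against control, an adjusted p below 0.05 without a fold threshold gave 3330 genes lower and 2375 higher in place of 1038 and 798, and a log2 fold change beyond 1 gave 436 and 409. The imprinted genes called lower went from 5 to 3 with at least 10 counts in every library, since *PEG10* and *SGCE* then left the test and 7 genes were too low to judge, and to 2 with a log2 fold change beyond 1. They ranged from 3 to 5 when 1 library was left out, with the spread taken from the groups that kept both libraries. In control against 0 h, the looser threshold gave 5500 genes lower and the stricter fold 2075, in place of 3376, and with at least 10 counts in every library 0 of the imprinted genes were called lower. In CTCF-depleted against 0 h, the looser threshold gave 5658 genes lower in place of 3726, the same filter left 0 imprinted genes lower, and the imprinted genes higher were 1 with DESeq2, 1 with a log2 fold change beyond 1, and between 1 and 2 when 1 library was left out.

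Replicate numbers did not pair the libraries (correlations of deviations -0.0194, 0.0109 and -0.0294). With a replicate block, 1033 genes were lower and 785 higher in CTCF-depleted against control, and all 5 imprinted genes were still called lower. Low counts of *PEG10* and *SGCE* at 96 h limit their folds, and the 5 genes at 0 gave no values to compare.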
